A study of Solanum lycopersicum with 12 samples.

Results

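The early response of tomato leaves to larvae of the leafminer *Tuta absoluta* was described from leaflets collected after 5 h of feeding. The comparison sets 3 infested 5 h libraries against 3 control 5 h libraries, and its members are the genes that exceeded 1 CPM (counts relative to library size) in at least 3 of these 6 libraries, 17044 genes of the 34075 counted. In the same 6 libraries, 9281 genes received no count. All plants were of the cultivar Better Bush, a dwarf tomato. Infested plants received 6 larvae on the 3 terminal leaflets of a single leaf, and the larvae were taken off before the leaflets were frozen. Control plants received a mock deposition and were sampled after the same time. The labels call this leaf the third true leaf and the methods the fourth. There were 6 infested and 6 control plants over the harvests at 5 h and 24 h, but how many plants entered a library is not stated. The p-values therefore set the difference between the groups against the spread between these libraries, which may be partly technical. A library is an extract of whole leaflets, in which mined tissue and untouched tissue are mixed.

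*T. absoluta* larvae enter the leaf and eat the mesophyll between its surfaces. In tomato, such damage is known to set off jasmonic acid, a hormone made from membrane lipids, which switches on proteins that hinder digestion in the insect gut. These include serine protease inhibitors, leucine aminopeptidase, threonine deaminase, arginase and polyphenol oxidase. A second line of defense is chemical. Phenolamides are formed when a hydroxycinnamic acid, made from phenylalanine, is joined to a polyamine such as putrescine or spermine, which are made from arginine and ornithine. Steroidal glycoalkaloids start from the mevalonate route to sterols.

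The 6 libraries held 19655669 to 28209033 counts, so that 3 counts corresponded to 0.104 to 0.157 CPM. Such floors cover counting error only. CPM refers throughout to the tested genes of a library scaled by TMM factors, which lay between 0.948 and 1.06. The 26 chlorophyll a/b binding protein genes listed under photosynthesis, light harvesting, were the defining markers of leaf tissue used here. Together these 26 genes held 66130 to 90495 CPM in infested libraries and 79655 to 93438 CPM in controls. None of them was at 0 in any library. One library stood apart in a set of genes, nearly all of them numbered on chromosome 0. All 69 tested genes numbered on chromosome 0, which holds sequence not placed on any chromosome, were highest in infested 5 h replicate 3. Together they reached 19476 CPM there, against 541 to 841 CPM in each of the other 5 libraries. In the same library, 35 genes exceeded 5 times their level in every other library at more than 5 CPM, 33 of them on chromosome 0, whereas 5 genes did so in infested replicate 2 and 0 in each of the other libraries. Several of these genes held nearly the same value, such as Solyc00g500039 at 51.1, 30.9 and 2322 CPM in infested replicates 1 to 3 and Solyc00g500083 at 53.0, 31.1 and 2352 CPM, and near-identical copies may share reads. The origin of these counts was not tested. Of the 69 genes, 17 were called higher in infested leaflets, and 2 of these 17 were still called without infested replicate 3. The counts below are therefore given with and without chromosome 0 where it matters.

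Feeding for 5 h changed the level of many genes past the test, with more and larger increases than decreases. The call is an adjusted p below 0.05 in edgeR's quasi-likelihood F test, adjusted by the Benjamini-Hochberg method over the 17044 genes. Called higher were 1827 genes (10.7% of those tested), and called lower were 1475 (8.65%). Without control replicate 3 the count of decreases was 863. Chromosome 0 accounted for 17 of the increases, and a fit without its genes called 1880 higher and 1513 lower. In 1811 of the genes called higher every infested library was above every control library, and in 1464 of those called lower every infested library was below. Over all genes tested, the infested libraries were all above the controls in 3296 (19.3%) and all below in 2999 (17.6%), called or not.

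The sizes were skewed toward increases. The log2FC, the fitted log2 ratio of infested to control, had a median of 1.03 among the genes called higher and -0.79 among those called lower, while the median over all genes tested was -0.006. Beyond a 2-fold change there were 938 increases and 455 decreases, which makes 67.3% increases. Beyond an absolute log2FC of 1.5 there were 627 against 161, or 79.6% increases, and without chromosome 0 there were 610 against 161. Beyond 3, 232 genes rose (215 without chromosome 0) and 5 fell. Beyond 5, 94 genes rose and none fell, and beyond 7 the count was 45 against 0. The 5% to 95% range of log2FC over all genes tested ran from -0.87 to 1.18.

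**Figure D1:**
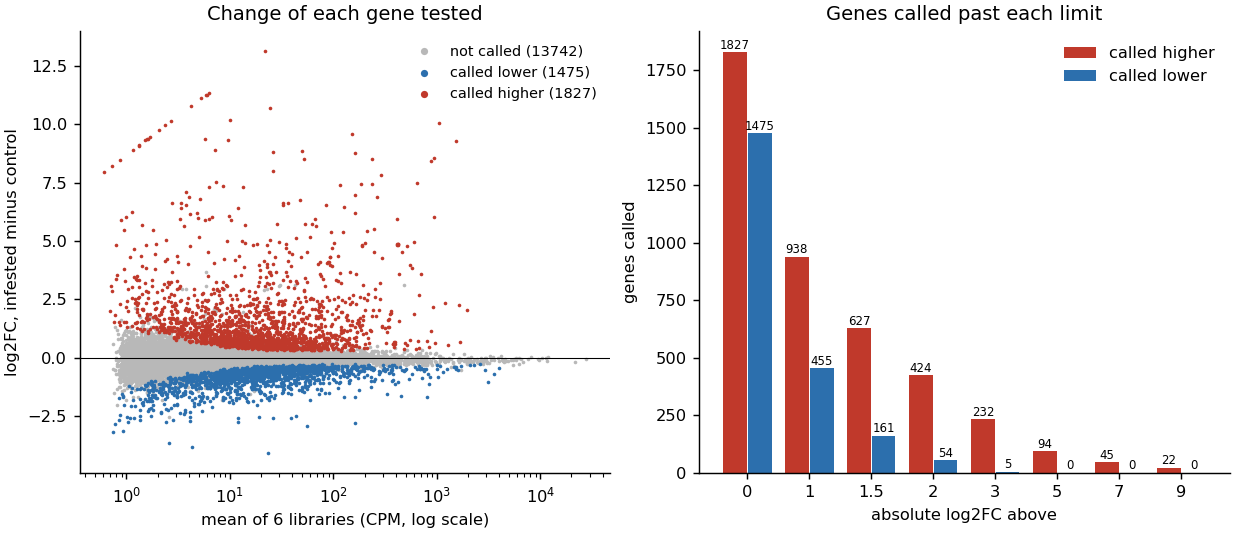
The left panel plots each of the 17044 genes tested by its mean over the 6 libraries (CPM, log axis) and its log2FC, with genes called higher in red, called lower in blue and not called in grey. The right panel gives the number called past each absolute log2FC, where increases go from 1827 to 22 at a limit of 9 and decreases from 1475 to 0 at a limit of 5.

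Calls were more frequent among well expressed genes. Below 3 CPM, 6.07% of the genes tested were called higher and 4.40% lower, and between 30 and 100 CPM these shares were 14.9% and 11.8%. At 300 CPM and above, the order turned, with 12.6% called higher and 14% lower. In that class the increases were still the larger ones, the median log2FC being 1.87 for increases and -0.50 for decreases. In terms of the RNA pool, the genes called higher took 11.9%, 15% and 14.9% of the counts in infested replicates 1, 2 and 3 (11.9%, 15% and 13.4% without chromosome 0), against 4.70% to 5.08% in the controls. The genes called lower took 8.93%, 7.23% and 7.80%, against 12.2% to 12.6% in the controls. These shares describe genes that were called on the same libraries and carry no test.

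The 3 infested libraries changed in the same direction but not to the same extent. Over the genes called higher, the median distance from the control mean on the log2 CPM scale was 0.90, 1.19 and 0.96 in infested replicates 1, 2 and 3, and over those called lower it was -0.67, -0.89 and -0.74. Infested replicate 2 was the highest of the 3 in 69.5% of the genes called higher and the lowest in 58.1% of those called lower. The first principal component, with 71.1% of the variance, gave scores of 38.7, 68.1 and 52.2 to the infested libraries and between -54 and -51 to the controls. Infested replicate 1 lay nearest to the controls by the median distances and by this score, which rest on the same libraries as the calls and carry no test.

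**Figure D2:**
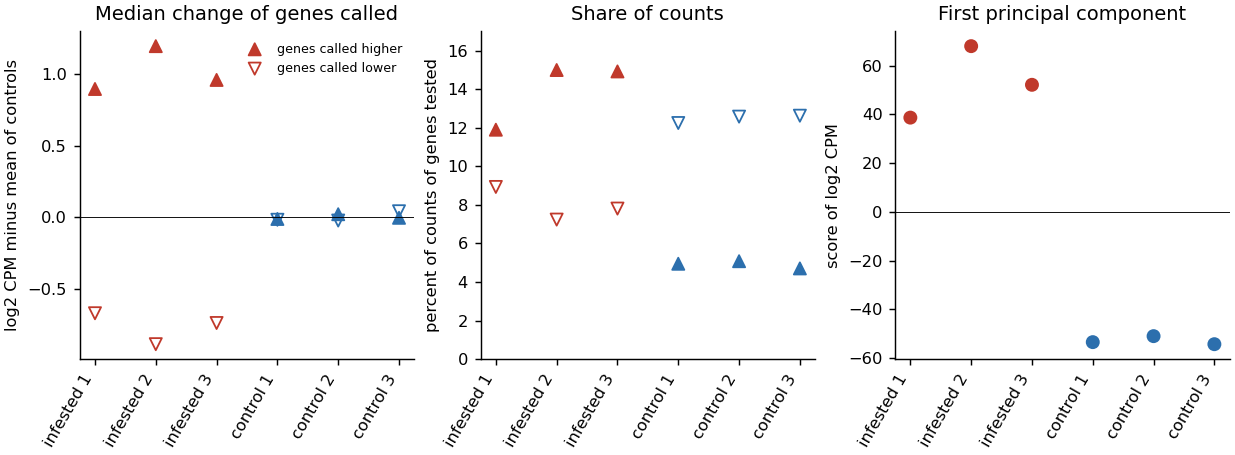
For each of the 6 libraries, the left panel shows the median of log2 CPM minus the control mean over genes called higher (filled) and lower (open), the middle panel the percent of counts held by those genes, and the right panel the score on the first principal component. Infested libraries are red and controls blue; infested replicate 2 lies farthest from the controls on the left and right and infested replicate 1 nearest.

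The largest increases started from silence. Among the 10 genes with the largest log2FC and no overlap between the groups, 9 had at most 2 counts over the 3 control libraries, and of the 22 genes beyond a log2FC of 9, 19 had at most 3 control counts. For these the fitted log2FC depends on the prior count that edgeR adds, so levels and bounds are given instead. A bound sets the mean of the infested libraries against 3 counts over the 3 control libraries. Single infested libraries can lie below it. A gene was counted as switched on when its controls held at most 3 counts in all and each infested library exceeded 1 CPM. This held for 27 genes, 18 of them without any control count, and no gene was switched off by the mirrored rule. Since such genes pass the filter only through the infested libraries, their number carries no test. Allowing 9 control counts gave 46 on and 0 off, and requiring less than 0.5 CPM in each library of one group gave 92 on and 9 off. A further 12 genes among the first 50 of the study's list of genes raised at 5 h had no control count either, but exceeded 1 CPM in at most 2 libraries and were not tested.

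The gene with the largest log2FC was a putrescine hydroxycinnamoyl transferase gene, whose product joins a hydroxycinnamic acid to putrescine. Solyc11g071480 held 12.7, 59.5 and 58.0 CPM in infested replicates 1 to 3 and no count in any control. Against the floor of 3 counts over the control group, its infested mean was at least 1165-fold higher. Solyc03g098760, annotated with endopeptidase inhibitor activity, reached 17.8, 106 and 23.1 CPM, while its controls held 0, 2 and 0 counts. Against the same floor its infested mean was at least 1317-fold higher, a larger bound than that of Solyc11g071480. Infested replicate 2 was far above the other infested libraries for this inhibitor gene, whereas replicates 2 and 3 were alike for the transferase gene. Solyc02g067750, which carries a carbonic anhydrase domain, reached 9.48, 45.4 and 5.23 CPM, with 1 count in the controls. Solyc06g083130, annotated as a dCTP pyrophosphatase, reached 13.5, 22.9 and 20.9 CPM from 2 control counts. Solyc01g095960, annotated as a diacylglycerol O-acyltransferase, reached 6.96, 25.2 and 10.5 CPM, also from 2 control counts. The distance between the groups in these 5 genes follows from the rule that chose them.

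Another 6 of the 10 largest increases had no control count at all. Solyc08g076980 (hydrolase activity) held 2.01, 27.9 and 7.80 CPM in infested replicates 1 to 3. Its infested mean was at least 337-fold above the controls, or at least 132-fold without replicate 2. Solyc10g078360 (oxidoreductase activity) held 5.37, 22.8 and 7.69 CPM. Its infested mean was at least 321-fold higher, or at least 175-fold without replicate 2. Solyc08g036660 held 10.5, 17.7 and 7.27 CPM, with an infested mean at least 317-fold higher. Solyc10g005320 carries a tryptophan synthase beta chain domain, the subunit that joins indole and serine to tryptophan, and reached 3.81, 23.7 and 4.39 CPM. Solyc10g076670, at 2.04, 21.3 and 1.83 CPM, and Solyc04g078370, annotated with heme and iron binding like the cytochrome P450 enzymes, at 3.18, 9.14 and 3.77 CPM, complete the group. Replicate 2 was the highest library in every one of these 6 genes. A polyphenol oxidase gene, Solyc08g074650, chosen after its values were seen, was also silent in the controls and reached 1.52, 4.64 and 3.45 CPM. Polyphenol oxidases turn phenolics into quinones that bind protein.

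**Figure D3:**
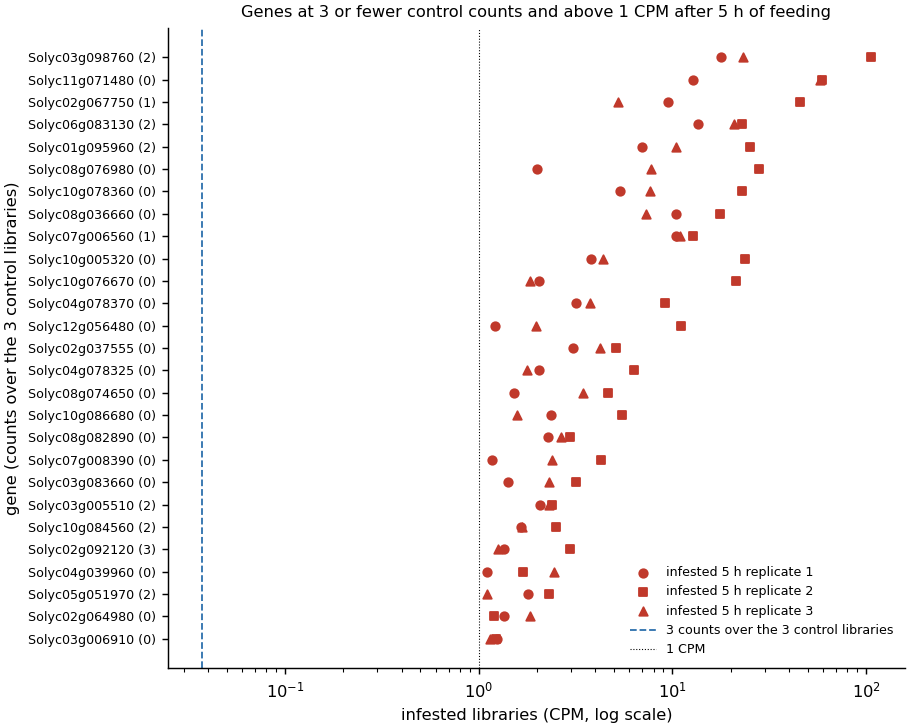
Each row is one of the 27 genes with at most 3 control counts and more than 1 CPM in each infested library, with the number of control counts in brackets, and the symbols give its CPM in the 3 infested 5 h libraries (log axis). The dashed line marks 3 counts over the control group and the dotted line 1 CPM; the highest value is 106 CPM for Solyc03g098760 in replicate 2.

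Genes listed under the wound response rose strongly. The study drew 11 genes from its calls at 5 h under response to wounding, and all 11 were called higher, with a median log2FC of 6.76 against -0.006 over all genes tested. The list was chosen on these libraries, so that its direction is no independent evidence. Solyc09g089540, a serine-type endopeptidase inhibitor, held 117, 465 and 324 CPM in infested libraries and 0.407, 0.448 and 0.299 CPM in controls (log2FC 9.60 ± 0.59 SE, adjusted p = 3.98e-06). Solyc09g089520 held 135, 511 and 329 against 0.776, 0.672 and 0.748 CPM (log2FC 8.78 ± 0.53 SE, adjusted p = 3.87e-06), and Solyc09g089530 held 230.0, 748 and 747 against 2.77, 3.32 and 1.38 CPM (log2FC 7.85 ± 0.54 SE, adjusted p = 7.98e-06). In all 3 inhibitor genes the groups are apart by a factor above 50 between the lowest infested and the highest control library, with infested replicate 1 the lowest. The smallest change in the list was that of Solyc09g084460, with 17.7, 38.5 and 23.9 against 3.70, 2.87 and 4.53 CPM (log2FC 2.85 ± 0.29 SE, adjusted p = 9.69e-05).

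All 11 of these genes follow each other among the tested genes in the order of their identifiers, where untested genes between them are skipped. Identifiers number the genes along a chromosome, and the longest run of neighbouring tested genes called in the same direction had 13 members on chromosome 9, from Solyc09g083435 to Solyc09g089550, with log2FC between 2.85 and 9.60. The members outside the wounding list were Solyc09g083435, with 694, 1674 and 1467 against 8.91, 6.46 and 5.76 CPM (log2FC 7.5 ± 0.37 SE, adjusted p = 1.58e-06), and Solyc09g089550, with 11.9, 19.6 and 14.4 against 2.37, 1.94 and 1.65 CPM (log2FC 2.94 ± 0.24 SE, adjusted p = 2.15e-05). Between these ends, Solyc09g084470 (log2FC 6.18 ± 0.62 SE, adjusted p = 9.64e-05), Solyc09g084480 (log2FC 7.41 ± 0.67 SE, adjusted p = 4.81e-05) and Solyc09g084490 (log2FC 7.43 ± 0.36 SE, adjusted p = 1.37e-06) rose by more than 6 on the log2 scale, and Solyc09g084440, Solyc09g084450, Solyc09g089490 and Solyc09g089500 had log2FC of 6.76, 5.40, 4.91 and 5.72. The sources used here do not say how reads that match several copies were counted, so the split of reads among members of such a cluster is uncertain. In all, 57 runs of at least 3 genes were called higher (202 genes) and 25 were called lower (80 genes), among them runs of 7 genes on chromosomes 5 and 6 and of 6 genes on chromosome 7, all higher.

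Other known wound proteins rose too. Leucine aminopeptidase, an exopeptidase that accumulates in wounded tomato leaves, is represented by a pair of neighbouring genes. Solyc12g010020 rose from 5.69, 4.63 and 4.19 CPM in the controls to 1595, 4022 and 3516 CPM (log2FC 9.30 ± 0.40 SE, adjusted p = 9.85e-07). Solyc12g010030 rose from 2.0, 2.50 and 1.46 to 1082, 2842 and 2424 CPM (log2FC 10.05 ± 0.44 SE, adjusted p = 9.85e-07). Solyc09g008670, annotated as threonine dehydratase, the enzyme that deaminates threonine, was chosen after its values were seen and rose from 5.77, 7.05 and 2.39 to 1041, 2145 and 2016 CPM (log2FC 8.42 ± 0.47 SE, adjusted p = 2.24e-06). In these 3 genes infested replicate 1 held less than the other infested libraries and still more than 100 times the highest control. Among the 5 genes called higher with the highest mean CPM, a ranking that is not corrected for gene length, Solyc12g010020 stood beside Solyc07g043420 (2818, 3327 and 3249 against 772, 821 and 686 CPM), Solyc05g010420 (1864, 3141 and 3107 against 529, 589.9 and 580.0 CPM), Solyc09g011080 (log2FC 0.67) and Solyc06g074820 (log2FC 0.56). The fit of 12 libraries did not call Solyc09g011080 (adjusted p = 0.197) or Solyc06g074820 (adjusted p = 0.147), and the latter also missed the threshold without control replicate 2 (adjusted p = 0.0545).

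A gene of jasmonic acid synthesis, a transcription factor gene and the lipase and acyltransferase genes tested were called higher. Allene oxide cyclase, which makes a precursor of jasmonic acid, went from 61.7, 62.5 and 67.2 CPM in controls to 236, 547 and 293 CPM in infested leaflets (Solyc02g085730, log2FC 2.49 ± 0.27 SE, adjusted p = 0.000143). Solyc08g076930, a bHLH transcription factor gene that the study names *SlMYC1*, went from 21.2, 23.3 and 26.0 to 95.8, 122 and 85.2 CPM (log2FC 2.10 ± 0.15 SE, adjusted p = 8.23e-06). Both genes were separated in all libraries, as were 1811 of the 1827 genes called higher. Of 4 lipase genes named by the study, 3 passed the filter and all 3 rose, namely Solyc02g077420 (log2FC 5.74 ± 0.54 SE, adjusted p = 6.01e-05), Solyc01g079600 (log2FC 3.45 ± 0.31 SE, adjusted p = 4.80e-05) and Solyc11g065530 (log2FC 1.54 ± 0.35 SE, adjusted p = 0.0131). The 3 lipid acyltransferase genes rose as well. Besides Solyc01g095960, described above, they were a phosphatidylcholine-sterol O-acyltransferase gene, Solyc09g072710 (log2FC 2.98), and a WSD1-type O-acyltransferase gene, Solyc07g053890 (log2FC 2.27). The study named these genes from its own calls. Solyc11g065530 missed the threshold without infested replicate 2 (adjusted p = 0.0525) and Solyc07g053890 without control replicate 1 (adjusted p = 0.055).

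On the route from arginine to spermine, genes of the polyamine list rose at the entry and at the last step. The genes of that list in between were not called. Of 17 genes on the polyamine list, which the study followed whether or not they changed, 12 were tested, 7 were called higher (58.3%) and none lower, with a median log2FC of 2.02, against 10.7% higher, 8.65% lower and a median of -0.006 over all genes tested. Arginase splits arginine to ornithine, and arginase 2 (Solyc01g091170) rose from 0.961, 1.38 and 1.5 CPM to 268, 637 and 519.6 CPM (log2FC 8.53 ± 0.38 SE, adjusted p = 9.85e-07). Its neighbour arginase 1 (Solyc01g091160) rose from 2.70, 3.62 and 3.03 to 11.8, 23.1 and 18.6 CPM (log2FC 2.51 ± 0.25 SE, adjusted p = 8.54e-05). Ornithine decarboxylase (Solyc04g082030), which forms putrescine from ornithine, rose from 11.8, 9.18 and 11.3 to 60.8, 128 and 114 CPM (log2FC 3.23 ± 0.25 SE, adjusted p = 1.95e-05). The parallel entry from arginine, arginine decarboxylase (Solyc01g110440), rose from 9.87, 9.55 and 8.87 to 40.3, 59.0 and 51.1 CPM (log2FC 2.41 ± 0.15 SE, adjusted p = 4.71e-06). Both routes to putrescine therefore held increases, the arginine decarboxylase route only in its first step: agmatine deiminase (Solyc12g038970) had a log2FC of -0.08 and N-carbamoylputrescine amidohydrolase (Solyc11g068540) one of 0.05, neither called.

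Further along, the spermidine synthase genes Solyc04g026030 (155, 142 and 160.1 against 163, 188 and 176 CPM, adjusted p = 0.19) and Solyc09g075900 (log2FC 0.17, adjusted p = 0.683) were not called. Spermine synthase (Solyc03g007240), which adds an aminopropyl group to spermidine, rose from 40.5, 33.0 and 34.6 to 676, 1282 and 1050.2 CPM (log2FC 4.80 ± 0.23 SE, adjusted p = 1.42e-06). A putative spermine synthase gene, Solyc08g061970, was not called (log2FC 0.80, adjusted p = 0.0743), but passed without infested replicate 1 (adjusted p = 0.0119), in DESeq2 (0.0284) and in the likelihood ratio test (0.0371). The aromatic amino acid decarboxylases, which form tyramine-type amines, both rose, with log2FC of 6.14 ± 0.59 SE for aromatic amino acid decarboxylase 2 (Solyc08g006740) and 1.63 ± 0.34 SE for decarboxylase 1A (Solyc08g068680), the latter not called in the fit of 12 libraries (adjusted p = 0.173). Of the lists that the study drew from its calls at 5 h, polyamine metabolic process held 6 genes tested and 6 higher (median log2FC 2.82), and arginine metabolic process 5 and 5 (median 1.77). Solyc05g010420, one of the most abundant genes called higher, belongs to polyamine metabolic process but not to the polyamine list.

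Genes of aromatic amino acid metabolism rose in all members tested. Of 20 genes drawn at 5 h under aromatic amino acid family metabolic process, 19 were tested and 19 were called higher, with a median log2FC of 1.23, a direction fixed by the choice of the list. Dehydroquinate synthase (Solyc02g083590, log2FC 0.71), chorismate mutase (Solyc02g088460, 0.69) and the prephenate dehydratase genes Solyc06g074530 (1.37) and Solyc11g066890 (0.85) were all called higher, but the fit of 12 libraries called neither prephenate dehydratase gene (adjusted p = 0.0826 and 0.0568). Phenylalanine ammonia lyase (PAL) removes its amino group and so opens the phenylpropanoid route. The PAL gene Solyc10g086180 rose from 95.9, 65.0 and 68.7 CPM to 752, 1295 and 1211 CPM (log2FC 3.83 ± 0.23 SE, adjusted p = 3.98e-06). The 4 PAL genes on chromosome 9, Solyc09g007890, Solyc09g007900, Solyc09g007910 and Solyc09g007920, had log2FC of 1.23, 1.33, 1.88 and 1.32 and were all called, but are close copies whose reads may be shared. PAL2 (Solyc05g056170) was not called (log2FC 0.49, adjusted p = 0.155), except without infested replicate 1 (log2FC 0.70, adjusted p = 0.0199).

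Past PAL, several genes on the way to hydroxycinnamic acids and their amides were called higher. Of 58 genes on the phenylpropanoid list, also followed whether or not they changed, 54 were in the count tables, 39 were tested, 16 were called higher (41.0%), 3 lower (7.69%) and 20 neither, with a median log2FC of 0.49. Over all genes tested 10.7% were higher and 8.65% lower, so that the share of decreases on the list was near that of all genes. The 4-coumarate ligase genes, which activate the acids with CoA, rose by 2.73 (Solyc03g117870) and 2.45 (Solyc06g068650) on the log2 scale. Hydroxycinnamoyl transferase (HCT, Solyc03g117600) rose from 21.9, 19.9 and 20.7 to 163, 357 and 277 CPM (log2FC 3.67 ± 0.25 SE, adjusted p = 7.98e-06). C3'H (Solyc01g096670), the hydroxylase that leads from coumaroyl to caffeoyl esters, rose from 13.3, 11.3 and 11.6 to 118, 267 and 164 CPM (log2FC 3.93 ± 0.27 SE, adjusted p = 8.27e-06). The caffeoyl-CoA O-methyltransferase gene Solyc04g063210, which leads on to feruloyl-CoA, rose from 4.81, 5.56 and 4.04 to 57.2, 95.1 and 68.1 CPM (log2FC 3.93 ± 0.21 SE, adjusted p = 1.90e-06). These 3 genes had every infested library at more than 7 times the highest control. The methyltransferase gene CCOAOMT1 (Solyc02g093270) and ferulate 5-hydroxylase (Solyc02g084570) rose by less, with log2FC of 0.70 and 0.95, the former not past the threshold without infested replicate 1 or control replicate 1 or 3 (adjusted p between 0.064 and 0.101), and CCOAOMT2 (Solyc10g050160, 0.19) and CCOAOMT3 (Solyc01g107910, -0.53) were not called, although the latter was called lower without infested replicate 2 (adjusted p = 0.0418).

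The amide bond is closed by hydroxycinnamoyl transferases. The second putrescine hydroxycinnamoyl transferase gene, Solyc11g071470, lies beside the one switched on from silence and rose from 0.370, 0.0746 and 0.150 CPM to 7.27, 20.4 and 12.3 CPM (log2FC 6.03 ± 0.53 SE, adjusted p = 3.99e-05). Of 5 tyramine hydroxycinnamoyl transferase genes tested, which use tyramine in place of putrescine, none was called higher. Over all genes tested 10.7% were called higher, so this count does not set these genes apart. Solyc08g068700 fell from 65.3, 65.6 and 92.0 to 26.0, 36.1 and 30.8 CPM (log2FC -1.26 ± 0.16 SE, adjusted p = 0.000483). The other 4, Solyc08g068690, Solyc08g068710, Solyc08g068730 and Solyc08g068780, had log2FC of 0.49, 0.67, 1.6 and 0.10 and were not called. Other settings called 2 of them higher, Solyc08g068730 in DESeq2 (log2FC 1.59, adjusted p = 0.0437) and Solyc08g068710 without control replicate 3 (log2FC 1.24, adjusted p = 0.0408). Hydroxycinnamoyl-CoA quinate transferase (Solyc07g005760), which leads to chlorogenic acid, was not called either (log2FC 0.14, adjusted p = 0.436).

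Of the flavonoid genes on the list, chalcone synthase CHS2 (Solyc05g053550), the entry enzyme, fell from 86.7, 66.4 and 58.2 to 45.4, 24.9 and 48.0 CPM (log2FC -0.84 ± 0.23 SE, adjusted p = 0.0294). Chalcone synthase CHS1 (Solyc09g091510, log2FC 0.35) and the chalcone isomerases Solyc05g010320 (-0.10) and Solyc05g052240 (-0.06) were not called, nor was the flavonoid regulator *SlMYB12* (Solyc01g079620, -1.0). Flavanone 3-hydroxylase (Solyc02g083860) rose, by 0.84 on the log2 scale, but was not called in the fit of 12 libraries (adjusted p = 0.103). A glucosidase gene of the list, Solyc01g074030, fell by 0.38 on the same scale. Of the 3 decreases in the phenylpropanoid list, 1 was left in the fit of all 12 libraries, at an adjusted p below 0.01, and without control replicate 1 or 2. CHS2 was not called without control replicate 1 (log2FC -0.66, adjusted p = 0.109) or replicate 2 (adjusted p = 0.0637), nor in the fit of 12 libraries (adjusted p = 0.207), and the glucosidase gene missed the threshold without any one library other than infested replicate 1 (adjusted p between 0.0605 and 0.133).

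**Figure D4:**
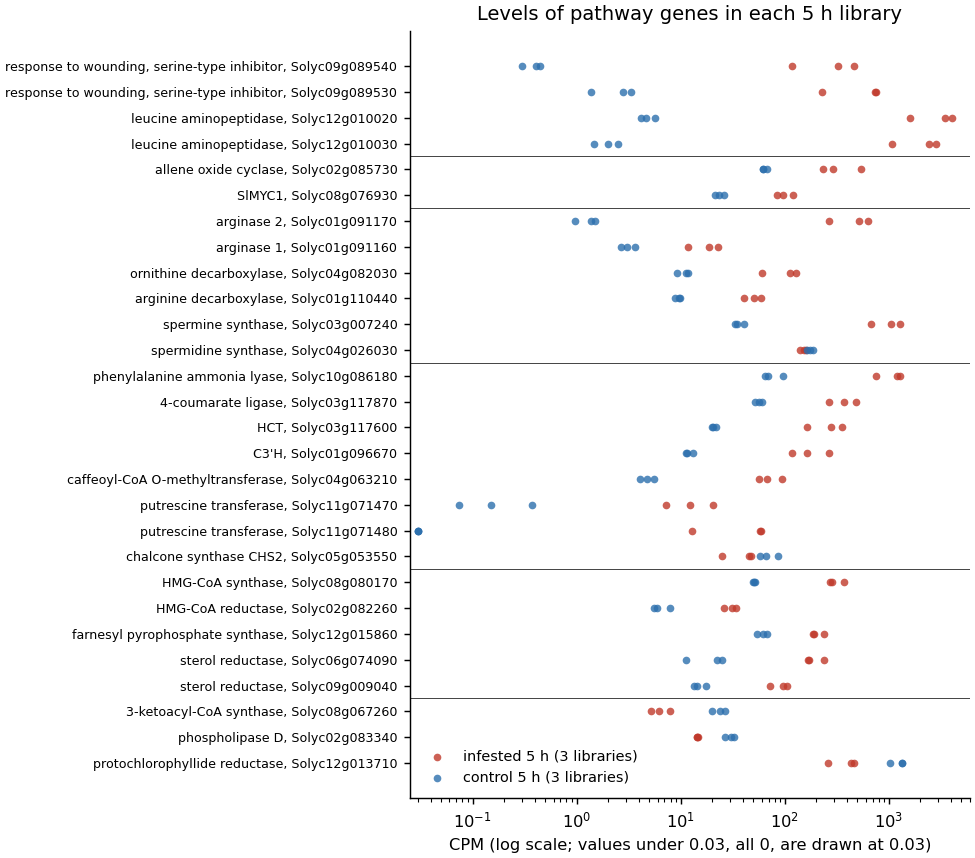
CPM (log axis) of named genes in each infested 5 h (red) and control 5 h (blue) library, from top to bottom for wound proteins, jasmonic acid synthesis and a transcription factor, polyamines, phenylpropanoids and phenolamides, mevalonate and sterols, and decreases. Red and blue points lie far apart in most rows, they are close together for spermidine synthase Solyc04g026030 (142 to 160.1 CPM infested, 163 to 188 CPM control), and the controls of Solyc11g071480, all 0, are drawn at 0.03.

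The mevalonate route and sterol genes rose together. Both lists were drawn by the study from its calls at 5 h, with 11 of 11 genes higher for isoprenoid biosynthetic process (median log2FC 1.48) and 9 of 9 for steroid metabolic process (median 2.52). HMG-CoA synthase (Solyc08g080170), at the start of the route, rose from 49.6, 50.9 and 51.4 to 375, 284 and 272 CPM (log2FC 2.62 ± 0.14 SE, adjusted p = 1.84e-06). HMG-CoA reductase (Solyc02g082260), which makes mevalonate, rose from 7.84, 5.97 and 5.57 to 34.3, 26.0 and 31.1 CPM (log2FC 2.24 ± 0.17 SE, adjusted p = 1.42e-05). The following steps rose too, with log2FC of 1.86 for mevalonate kinase (Solyc01g098840), 1.48 for isopentenyl diphosphate isomerase (Solyc05g055760) and 1.75 for farnesyl pyrophosphate synthase (Solyc12g015860). Squalene monooxygenase (Solyc04g077440), which commits squalene to sterols, had a log2FC of 1.4. The sterol reductase genes rose more, Solyc06g074090 from 24.8, 22.3 and 11.4 to 239.7, 173 and 167 CPM (log2FC 3.31 ± 0.27 SE, adjusted p = 2.53e-05) and Solyc09g009040 from 14.3, 13.6 and 17.6 to 105, 97.3 and 72.9 CPM (log2FC 2.60 ± 0.16 SE, adjusted p = 3.98e-06).

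Of the signaling genes named, 1 of 5 for ethylene reception or signaling and 1 of 4 for MAP kinases were called higher, against 10.7% of all genes tested. Among the ethylene genes, Solyc06g053710 rose from 1.26, 0.672 and 1.12 to 4.57, 6.52 and 6.12 CPM (log2FC 2.49 ± 0.30 SE, adjusted p = 0.000314), and the other 4 had log2FC between 0.05 and 0.16 and were not called. Among the MAP kinase genes, *SlMPK1* (Solyc12g019460) rose from 11.9, 13.7 and 12.7 to 20.8, 22.3 and 21.3 CPM (log2FC 0.75 ± 0.12 SE, adjusted p = 0.00154). *SlMPK3* (Solyc06g005170), at 15.3, 17.6 and 18.0 against 11.4, 14.4 and 12.1 CPM, missed the threshold (adjusted p = 0.0572), and *SlMPK4* (Solyc11g072630) and *SlMPK5* (Solyc01g094960) were not called. Without infested replicate 1 or control replicate 2, 2 of the 4 were called.

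Decreases were smaller than increases. In bulk leaflets, fewer cells of a type and less RNA per cell cannot be told apart. The largest decrease was that of Solyc03g006880, annotated with oxidoreductase activity, which fell from 50.1, 38.1 and 44.7 CPM to 3.22, 1.69 and 2.98 CPM (log2FC -4.08 ± 0.23 SE, adjusted p = 2.24e-06). Solyc01g102610, a membrane oxidoreductase by annotation, fell from 77.7, 97.4 and 117 to 15.9, 10.2 and 12.2 CPM (log2FC -2.93 ± 0.19 SE, adjusted p = 5.98e-06). Solyc03g120020, annotated as an inorganic anion exchanger, fell from 244, 286 and 312 to 56.2, 30.5 and 33.7 CPM (log2FC -2.80 ± 0.22 SE, adjusted p = 1.91e-05). In all 3 genes infested replicate 2 was the lowest library, and the lowest control exceeded the highest infested library by a factor above 4. The other 7 of the 10 largest decreases were Solyc09g075590 (-3.81), Solyc03g111950 (-3.67), Solyc02g085145 (-3.17), Solyc04g015820 (-3.14), Solyc09g090630 (-2.83), Solyc06g035530 (-2.76) and Solyc06g069600 (-2.76), of which Solyc02g085145 and Solyc04g015820 held 2 to 7 counts in each infested library. Of these, Solyc06g035530 was not called without control replicate 1 (log2FC -2.10, adjusted p = 0.0695) and Solyc09g090630 not without infested replicate 3 (log2FC -2.74, adjusted p = 0.0574).

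Among the 5 genes called lower with the highest mean CPM, a magnesium chelatase subunit gene of chlorophyll synthesis, Solyc04g015750, went from 4364, 4305 and 4476 to 2686, 2533 and 2844 CPM (log2FC -0.71 ± 0.09 SE, adjusted p = 0.000369). Solyc07g064160 fell by 1.05 on the log2 scale, Solyc02g062340 by 0.52, Solyc01g110360 by 0.45 and Solyc10g018300 by 0.29. All 5 kept their groups apart, as did 1464 of the 1475 genes called lower. With 1 library left out, Solyc10g018300 was called only without infested replicate 1 (adjusted p between 0.0837 and 0.154 without each of the others), Solyc01g110360 missed the threshold without infested replicate 2 or 3 or control replicate 2 (adjusted p between 0.0577 and 0.0884), and the fit of 12 libraries called neither of them (adjusted p = 0.263 and 0.0515) nor Solyc07g064160 (adjusted p = 0.288).

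Several groups fell that the study named from, or annotated in, its own list of decreases at 5 h, so that their direction is fixed by the choice. The 6 genes for 3-ketoacyl-CoA synthases, which elongate the fatty acids of cuticular wax, were all called lower, among them Solyc08g067260 from 26.9, 20.2 and 24.2 to 5.23, 6.22 and 7.85 CPM (log2FC -1.89 ± 0.18 SE, adjusted p = 5.62e-05) and Solyc05g009270 (log2FC -2.50 ± 0.58 SE, adjusted p = 0.0135). The 6 genes of phosphatidic acid metabolism fell with a median log2FC of -0.71, led by phospholipase D (Solyc02g083340), which went from 32.7, 26.7 and 30.8 to 14.2, 14.8 and 14.5 CPM, and a phospholipase C gene (Solyc10g055240, -0.94). The phospholipase C gene missed the threshold without infested replicate 2 or 3 or control replicate 2 or 3 (adjusted p between 0.0717 and 0.138), and of the 6 genes 2 were left without control replicate 2 and 3 without each of the other 3 libraries. Xyloglucan genes, whose enzymes loosen or rebuild the cell wall, fell in 7 of 7 (median -1.10), with Solyc09g008320 at -1.53 and Solyc01g099630 at -1.28. Of UDP-glycosyltransferase genes 10 of 10 fell (median -0.87), led by Solyc10g009580 (-1.72) and Solyc06g082300 (-1.28).

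Genes of microtubule-based movement, DNA replication, auxin response, protein phosphorylation and protochlorophyllide reductase were annotated in the same list of decreases. The first term had 6 of 6 genes lower (median -0.91) and DNA replication 6 of 6 (median -0.72). Of the microtubule genes 2 were left without control replicate 1 and 3 without control replicate 3. Of 6 auxin response genes tested 4 were called lower, against 8.65% of all genes tested, with Solyc01g110580 at -1.91 and Solyc01g110920 at -1.17. In all 6 the infested libraries lay below all controls, which held for 17.6% of all genes tested. The list was chosen on these libraries, so neither count is independent evidence. Solyc01g110920 was not called without infested replicate 2 or 3 or control replicate 2 or 3 (adjusted p between 0.0566 and 0.103). Of these 4 calls, 2 were left without control replicate 2 and 1 without control replicate 3. Of 69 protein phosphorylation genes tested, a term carried by protein kinases, 64 were called lower (median -0.92). Protochlorophyllide reductase makes chlorophyllide in the light, and its 3 genes fell, Solyc12g013710 from 1334, 1022 and 1342 to 261, 463 and 437 CPM (log2FC -1.67 ± 0.20 SE, adjusted p = 0.000333), Solyc10g006900 by 1.05 and Solyc07g054210 by 0.87 on the log2 scale. Decreases seldom formed long runs of neighbours, and the longest were 5 runs of 4 genes. One of them, Solyc01g109670 to Solyc01g109700, included genes annotated with DNA binding and fell by 0.66 to 2.59 on the log2 scale, and its most changed member Solyc01g109690 went from 72.5, 71.0 and 59.4 to 23.7, 4.68 and 4.71 CPM. Another, Solyc09g089690 to Solyc09g089740, was made of oxidoreductase genes.

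Lists that the study drew from the 24 h calls, on other libraries, were mostly not called at 5 h; the ethylene list is given above. None of the 26 light harvesting genes was called (median log2FC -0.13), and none of 5 carotenoid genes. Of 7 chlorophyll synthesis genes 2 were called lower, of 20 tetrapyrrole genes 5, of 17 fatty acid biosynthesis genes 4, of 19 tRNA aminoacylation genes 1 and of 6 riboflavin genes 1, against 8.65% of all genes tested. With 1 library left out, 1 chlorophyll gene and 2 or 3 tetrapyrrole genes were called lower whichever library it was, and the tRNA gene was called only without infested replicate 1 or control replicate 2. No member of these other 7 lists was called higher. Their medians lay between -0.29 and -0.11 on the log2 scale. The 2 largest decreases among them were those of the 3-ketoacyl-CoA synthase genes Solyc05g009270 and Solyc08g067260 in the fatty acid list, given above. In the tetrapyrrole list, Solyc04g015750 (-0.71) and Solyc02g068350 (-0.63) had the largest decreases, the latter not called in the fit of 12 libraries (adjusted p = 0.109) or without infested replicate 2 or 3 or control replicate 1 (adjusted p between 0.0521 and 0.0854).

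**Figure D5:**
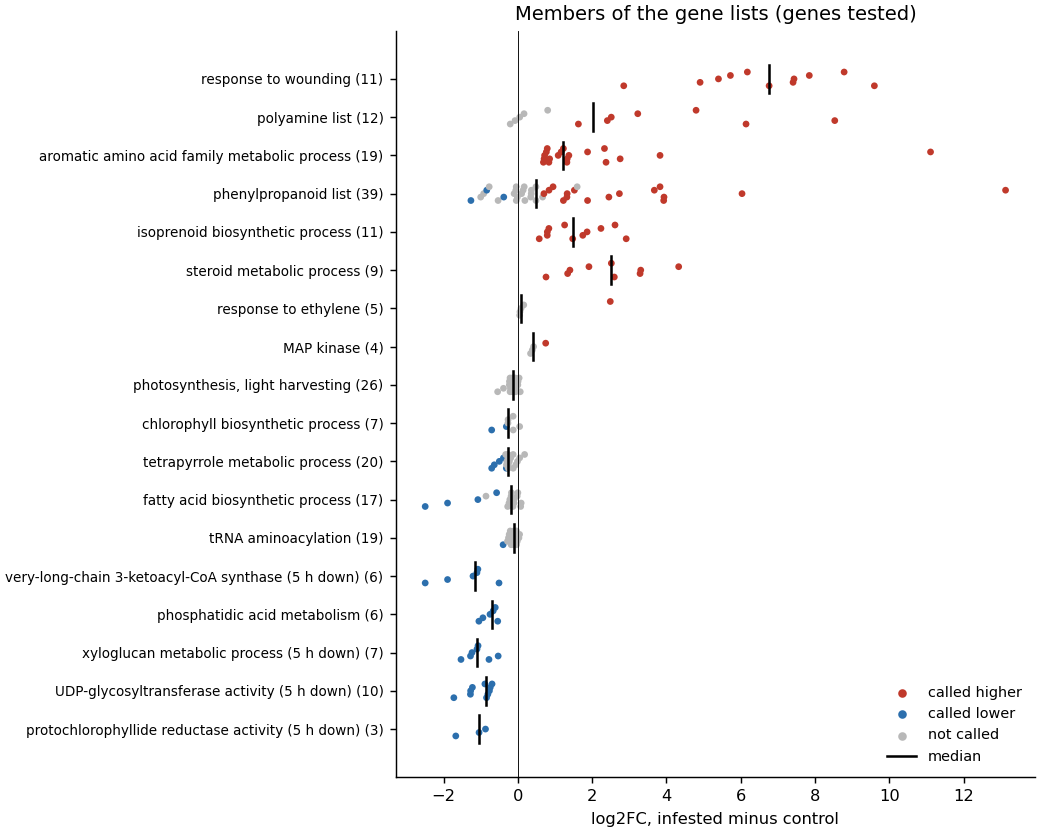
Each point is the log2FC of a tested member of a gene list (number tested in brackets), red when called higher, blue when called lower and grey when not called, and the bar is the list's median. The medians run from 6.76 for response to wounding to -1.16 for the very-long-chain 3-ketoacyl-CoA synthases, and lists marked 5 h down, like most lists at the top, were chosen by the study on these libraries.

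In the median, replicates of infested leaflets spread more than controls in the genes that changed, and about as much in the rest. The median SD of log2 CPM over all genes tested was 0.19 in infested and 0.18 in control libraries (n = 3 each), a description without a test. For genes called higher it was 0.23 against 0.18, for genes called lower 0.20 against 0.17, and for genes not called 0.18 in both groups. The infested SD was the wider one in 58.0% of genes called higher, 59.6% of those called lower and 51.0% of those not called. On the CPM scale above 10 CPM, the median coefficient of variation of the genes called higher was 13.7% in infested and 10.3% in control libraries. In pairs of replicates, the chi-square of the counts per degree of freedom was 42.3, 51.2 and 46.6 for infested libraries and 18.6, 21.6 and 11.7 for controls, so that no pair agreed within counting noise. This does not tell separate plants from repeat preparations of shared material. The chi-square sums include the chromosome 0 genes, which were far higher in infested replicate 3, and were not computed without them. Of the infested pairs, only that of replicates 1 and 2, at 42.3, is free of replicate 3. Pearson's r of log2 CPM, taken across genes that do not vary independently of each other, was 0.973 to 0.975 between infested and 0.978 to 0.981 between control libraries. The common biological coefficient of variation was 18.4%. The spread was uneven over genes. Infested replicate 2 held 10 times or more the level of the other infested libraries in Solyc10g076670, whereas Solyc07g006560, an RNase T2 gene that was also switched on and was chosen after its values were seen, held 10.4, 12.7 and 10.9 CPM.

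The response at 5 h was set beside that at 24 h only through the test of the difference, in a fit of all 12 libraries. Between the times, 393 of 18200 genes (2.16%) had a different response. Of the 135 genes named here, 13 were among them, and their values at both times are given in the closing section. The genes named were picked largely for their change at 5 h, so this count is not set against the share over all genes.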

How the data were processed

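RNA was measured in tomato leaflets by Illumina sequencing of paired reads. According to the methods and headers, reads were trimmed (Trimmomatic), aligned (BWA-MEM) and assigned to genes (featureCounts) by the authors. The deposited files hold whole numbers, taken as raw counts, although the methods speak of FPKM. The sources used here give neither the strand setting nor the treatment of multi-mapping reads. Groups came from the sample labels. The members and lists were chosen with earlier results of these data known.

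The test was run with edgeR 4.0.16 on limma 3.58.1 under R 4.3.3: genes above 1 CPM in at least 3 of the 6 libraries, TMM, 1 mean per group, quasi-likelihood F test, Benjamini-Hochberg adjustment, calls at adjusted p below 0.05. The SE is the absolute log2FC divided by the square root of F. Responses at 24 h, and the test of 24 h minus 5 h, came from a fit of all 12 libraries (18200 genes). With totals of 19655669 to 28209033 counts, 3 counts equal 0.104 to 0.157 CPM.

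Genes were named by rule: the 10 largest changes in each direction without overlap, the 5 most abundant called, the 5 highest switched on, the longest runs, genes named by the study, the polyamine, phenylpropanoid and wounding lists, and the 2 largest changes of other groups. Many members of these lists are given only as counts.

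Alternatives were DESeq2 size factors, library totals, no filter, filterByExpr, the likelihood ratio test, DESeq2 1.42.0, 12 libraries, a replicate block, a prior count of 2, an adjusted p below 0.01, an absolute log2FC above 1.5, other limits for switched genes and runs, and each library left out. Leaving out chromosome 0 was added after seeing the data. On a single simulated data set (16779 genes, 200 changed), the test found 81% of 2-fold and 100% of 4-fold changes. False calls made up 7.65%, against 18.7% for the likelihood ratio test and 15.07% for DESeq2. The changed genes were drawn above 3 CPM, equally in both directions, with dispersions estimated by edgeR. The real data hold many more changes, skewed toward increases, so these rates need not hold for the calls given here. The reference table matched 0 gene identifiers, so no sequence, promoter or protein is shown and families by product name were not analysed here.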

Additional observations from a re-analysis of the deposited data

Results flagged for a closer look

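Of the 135 genes named with a response at both times, 13 had a log2FC at 24 h that differed from that at 5 h by the test of the difference in the fit of all 12 libraries, in which 393 of 18200 genes (2.16%) were called. The 24 h responses come from other libraries with their own controls. Most of the genes named were picked for their change at 5 h, a choice that favours smaller changes at 24 h. The 13 are therefore not set against the 2.16% over all genes.

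Of the genes raised at 5 h, 8 were raised less at 24 h. PAL Solyc10g086180 went from 3.81 at 5 h to 1.09 at 24 h (difference -2.72 ± 0.47 SE, adjusted p = 0.024). C3'H Solyc01g096670 went from 3.91 to 1.36 (difference -2.55 ± 0.56 SE, adjusted p = 0.0403), and the caffeoyl-CoA O-methyltransferase gene Solyc04g063210 from 3.91 to 2.44 (difference -1.48 ± 0.30 SE, adjusted p = 0.0343). In the mevalonate and sterol routes, HMG-CoA synthase Solyc08g080170 went from 2.59 to 0.57 (difference -2.03 ± 0.24 SE, adjusted p = 0.00803) and farnesyl pyrophosphate synthase Solyc12g015860 from 1.73 to 0.51 (difference -1.22 ± 0.24 SE, adjusted p = 0.0343). The sterol reductase genes Solyc06g074090 and Solyc09g009040 went from 3.29 to 0.56 (difference -2.73 ± 0.48 SE, adjusted p = 0.0251) and from 2.58 to 1.11 (difference -1.46 ± 0.29 SE, adjusted p = 0.0343). Solyc09g089550, at the end of the run on chromosome 9, went from 2.92 to 0.45 (difference -2.47 ± 0.46 SE, adjusted p = 0.0293).

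One gene rose further. The wounding list gene Solyc09g084460, which had the smallest change of its list at 5 h, went from 2.83 to 6.65 (difference 3.82 ± 0.78 SE, adjusted p = 0.0343).

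Of the decreases, 4 were less deep or turned at 24 h. Solyc03g006880 went from -4.10 to -1.54 (difference 2.55 ± 0.43 SE, adjusted p = 0.024), Solyc01g102610 from -2.95 to -0.58 (difference 2.37 ± 0.29 SE, adjusted p = 0.00836) and Solyc03g120020 from -2.83 to -1.19 (difference 1.64 ± 0.31 SE, adjusted p = 0.032). The tyramine hydroxycinnamoyl transferase gene Solyc08g068700 went from -1.29 to 0.86 (difference 2.15 ± 0.45 SE, adjusted p = 0.0364), and its value at 24 h was not past the threshold (adjusted p = 0.0679).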

How the results depend on the processing

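No gene called at 5 h reversed under any setting tried, and of the 115 genes named and called, 72 were still called under every setting that tested them, the limits on fold and p included. The counts of 1827 higher and 1475 lower genes stayed within 1.5 times under both other normalizations, both other filters, the likelihood ratio test (1952 and 1657), DESeq2 (1995 and 1760) and the fit of all 12 libraries (1263 and 1017). They moved to 1098 and 665 at an adjusted p below 0.01, and to 627 and 161 above an absolute log2FC of 1.5. Leaving out 1 library in turn gave 1253 to 1707 higher and 863 to 1469 lower genes; the lowest count of decreases, 863, was that without control 5 h replicate 3. The median log2FC of the genes called higher was 1.44 in the fit of 12 libraries, 1.53 at 0.01, 2.44 above 1.5 and 1.01 to 1.34 with a library left out, and that of the genes called lower was -0.95, -1.80 and -0.91 to -0.82 under the last 3. These medians follow from which genes are called. Of the phenylpropanoid list, 10 genes were higher above 1.5, and its count of lower genes was 1 in the fit of 12 libraries, 1 at 0.01, 0 above 1.5 and 1 to 3 with a library left out. Runs of at least 4 genes numbered 12 higher and 5 lower. Genes switched on numbered 46 with up to 9 control counts, 92 (and 9 off) below 0.5 CPM, and 31 to 38 with a control library left out; without an infested library the rule could not be evaluated, since the filter needs 3 libraries, and genes with silent controls are then not tested. The ratio of infested to control spread in the genes called higher was 1.32 as coefficient of variation, against 1.26 as SD. The share called was lowest below 3 CPM, where the median SE of log2FC was 0.37.

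No sign was seen that the replicate numbers of the labels pair the libraries. Deviations of same-numbered infested and control libraries correlated at -0.14, -0.07 and -0.05 across genes, and those of differently numbered libraries at -0.10 to 0.17. With so few libraries per group, these values cannot settle whether the libraries were paired. With the replicate number as a block, 1555 genes were higher and 1185 lower.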
